A study of Mus musculus with 2 samples.

Results

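Th1-like CD4 T cells were taken here as the Foxp3-negative CD4 T cells of the infarcted mouse heart in which Cxcr3 or Tbx21 RNA was seen. They were 1156 of 10144 cells that passed the quality filters, 701 in the anti-IgG library and 455 in the anti-PD1 library. A cell was kept with at least 300 genes, 500 or more UMIs (molecular tags that let each captured RNA be counted once) and at most 10% mitochondrial UMIs. A member had at least 1 UMI of Cd4 or Cd40lg, at least 1 of Cd3d, Cd3e or Cd3g, none of Cd8a, Cd8b1, Foxp3, Trdv4, Trgv6 and Ncr1, and at least 1 of Cxcr3 or Tbx21. Because the members were chosen on their measured Cxcr3 and Tbx21 UMIs, the levels of those genes are given as a description and support nothing. The 1839 Foxp3-negative CD4 cells that met every other criterion but had no Cxcr3 or Tbx21 UMI, 836 in the anti-IgG and 1003 in the anti-PD1 library, served for comparison and are called the other CD4 cells.

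RNA of single cells was counted in droplet libraries of T cells from the heart. Both libraries came from hearts of wild-type mice 7 days after myocardial infarction, in which heart muscle dies for lack of blood flow. One group of mice received anti-PD1, which binds the inhibitory receptor encoded by Pdcd1, and the other received anti-IgG. The labels do not give the age or number of the mice, or whether hearts were pooled. With a single library of each kind there is no replicate to check a difference against, no p-value is given, and the 95% intervals cover counting error only.

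Th1 cells are the helper T cells that secrete interferon gamma, encoded by Ifng, and direct macrophages and CD8 T cells against intracellular microbes. Their master regulator is the T-box factor T-bet, encoded by Tbx21, which switches on Ifng and the chemokine receptor gene Cxcr3. CXCR3 draws T cells into inflamed tissue along CXCL9, CXCL10 and CXCL11, which other cells make in response to interferon gamma. Zfp683 encodes Hobit, a factor of tissue-resident lymphocytes, and Cd40lg encodes CD40 ligand, through which helper T cells activate B cells and antigen-presenting cells.

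The promoters of Nkg7 and Gzmk are shown because they hold the motif searched, chosen after the search, and that of Ifng because it is the cytokine gene of the class. Each line holds the 250 bases before the start site, read 5′ to 3′ on the gene's strand from the RefSeq promoter table of build GRCm38.p6. Capitals mark a T-box motif, GGTGTGA or its reverse complement TCACACC.
Nkg7, chr7:43436888-43437137, plus strand: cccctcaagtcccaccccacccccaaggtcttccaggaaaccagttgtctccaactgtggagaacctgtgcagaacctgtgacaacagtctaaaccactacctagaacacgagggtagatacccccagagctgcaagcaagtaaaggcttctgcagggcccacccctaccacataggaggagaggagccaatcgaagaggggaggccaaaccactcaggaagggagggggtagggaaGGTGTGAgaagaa
Gzmk, chr13:113180966-113181215, minus strand: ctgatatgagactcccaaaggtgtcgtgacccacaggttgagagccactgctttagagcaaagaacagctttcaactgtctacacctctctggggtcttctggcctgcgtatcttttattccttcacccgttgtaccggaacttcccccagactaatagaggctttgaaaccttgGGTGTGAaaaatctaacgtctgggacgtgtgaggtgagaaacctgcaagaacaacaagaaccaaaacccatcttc
Ifng, chr10:118440796-118441045, plus strand: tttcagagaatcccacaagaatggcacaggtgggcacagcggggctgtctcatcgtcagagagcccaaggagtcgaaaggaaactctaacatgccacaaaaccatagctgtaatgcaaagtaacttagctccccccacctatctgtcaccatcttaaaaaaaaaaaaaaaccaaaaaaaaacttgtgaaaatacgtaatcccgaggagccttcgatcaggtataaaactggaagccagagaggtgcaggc
The match lay 6 bases before the start site in Nkg7 and 68 bases before it in Gzmk, and the windows of Ifng, Cxcr3 and Tbx21 held none. A match was in 3 of 17 Th1 cytokine and effector genes (17.6%), Gzmk, Nkg7 and Xcl1. Those letters, on either strand, were found in 3.33% of all 32851 promoter windows of this length in the table. They were in 21 of 617 genes that were higher in the Th1-like cells (3.40%) and in 4 of 174 that were lower (2.30%). A match describes the letters of the window and is not a measured binding site. Zfp683, Cd40lg and Ccl5 were not in the table.

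The anti-IgG library held 4380 barcodes and 22806806 UMIs, the anti-PD1 library 6026 barcodes and 29046341 UMIs. The Th1-like cells had medians of 4158 and 4054 UMIs and 1796 and 1717 genes per cell, against 3513 and 3400 UMIs in the other CD4 cells. Their depth ranged from 742 to 22552 UMIs in the anti-IgG and from 1016 to 18869 UMIs in the anti-PD1 library. The libraries shared 47 cell barcodes, of which 7 anti-IgG and 6 anti-PD1 members carried one.

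Among Foxp3-negative CD4 cells, the Th1-like cells were a smaller part under anti-PD1. Fewer such cells and more of the other CD4 cells cannot be told apart in a share. Less Cxcr3 or Tbx21 RNA per cell would also move cells out of the rule, and cannot be told apart from either. They made up 45.6% (95% exact binomial interval 43.1 to 48.1; 701 of 1537 cells) of these cells under anti-IgG and 31.2% (28.8 to 33.7; 455 of 1458) under anti-PD1. The anti-PD1 over anti-IgG ratio of the shares was 0.684 (0.623 to 0.751). When each cell was thinned to 1000 UMIs the shares were 24.1% (176 of 729 cells) and 15.3% (103 of 674), a ratio of 0.633. With at least 2 UMIs of Cxcr3 and Tbx21 asked of a cell they were 31.6% and 15.6%, a ratio of 0.495. Cxcr3 or Tbx21 UMIs were seen in 1 of 59 B cells (1.69%) and 2 of 138 B cells (1.45%), at median depths of 2812 and 2436.5 UMIs. They were seen in 4 of 53 macrophages (7.55%) and 3 of 114 macrophages (2.63%). These shares are a description only, since members were chosen on the same UMIs. In CD8 T cells the same genes were seen in 39.5% and 40.2% of cells, and in Foxp3 T cells in 35.2% and 30.3%.

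Cxcr3 was lower under anti-PD1 in the Foxp3-negative CD4 cells, and Tbx21 less clearly so. Summed over all Foxp3-negative CD4 cells, Cxcr3 stood at 235 CPM (UMIs of the gene per 1000000 UMIs of the cells summed) under anti-IgG and 118 under anti-PD1, a ratio of 0.503 (0.460 to 0.550). Tbx21 stood at 61.0 and 44.9 CPM, a ratio of 0.736 (0.629 to 0.860). After thinning to 1000 UMIs, Tbx21 was seen in 4.25% (31 of 729) and 4.30% (29 of 674) of these cells, not distinguishable at that depth. In the CD8 T cells the Cxcr3 ratio was 0.705 and the Tbx21 ratio 1.37, and in the Foxp3 T cells they were 0.616 and 1.31 (0.908 to 1.91). Cells that entered on Cxcr3 alone were 61.2% of anti-IgG and 56.7% of anti-PD1 members, cells that entered on Tbx21 alone 9.27% and 18.5%, and cells with both 29.5% and 24.8%. Members with a single UMI of Cxcr3 and Tbx21 were 30.7% under anti-IgG and 49.9% under anti-PD1, and the highest sum in 1 cell was 16 and 11.

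Across the threshold of the rule, other Th1 genes were more frequent from the first Cxcr3 or Tbx21 UMI on. Nkg7, which encodes a granule protein of cytotoxic and Th1 lymphocytes, was seen in 8.49% of anti-IgG cells with 0 UMIs of Cxcr3 and Tbx21, 58.6% with 1, 70.7% with 2 to 3 and 78.1% with 4 or more. Under anti-PD1 its shares were 12.1%, 60.4%, 77.1% and 62.7%. Zfp683 was seen in 1.56%, 21.9%, 23.1% and 44.3% of anti-IgG cells and in 3.29%, 12.3%, 20.9% and 28.0% of anti-PD1 cells over the same steps. Ccr7, the receptor for lymph node homing, was seen in 65.2% of anti-IgG and 64.5% of anti-PD1 cells at 0 UMIs and in 17.7% and 16.3% at 1 UMI. Mki67, a marker of dividing cells, stood at 29.6, 61.3, 139 and 446 CPM over the 4 steps under anti-IgG and at 23.4, 113, 195 and 464 under anti-PD1. Cells with 4 or more UMIs of the 2 genes were also the deepest, with medians of 5168 and 5877 UMIs, so their shares cannot be told apart from depth. Medians at 0 and 1 UMI lay nearer, at 3513 and 3672 under anti-IgG and 3400 and 3729 under anti-PD1. The part of depth in that first step was not tested.

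**Figure D1:**
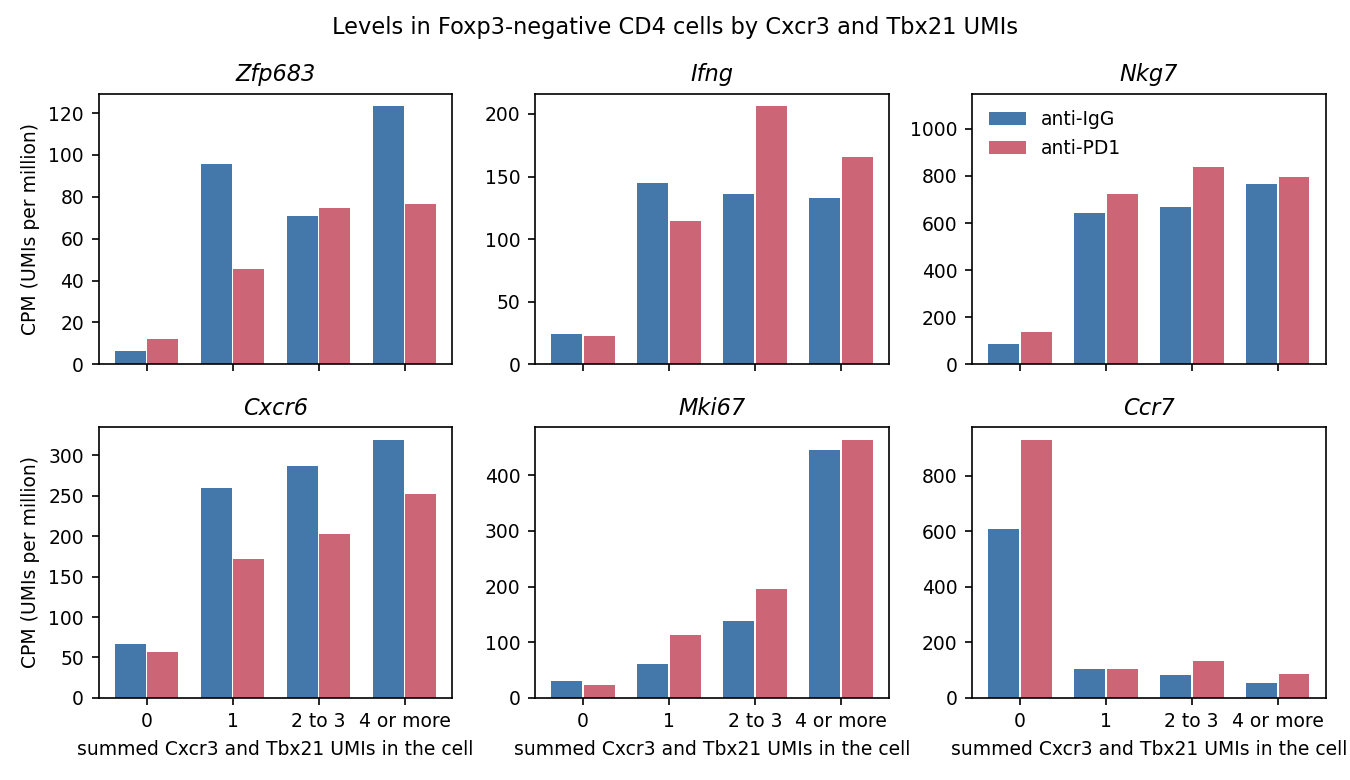
CPM of 6 genes (vertical axis) in Foxp3-negative CD4 cells grouped by their summed Cxcr3 and Tbx21 UMIs (horizontal axis), as bars for the anti-IgG and anti-PD1 libraries; cells with 0 are the other CD4 cells. Nkg7, Ifng, Zfp683 and Cxcr6 are higher and Ccr7 lower from the first UMI on, whereas Mki67 goes on to 446 and 464 CPM at 4 or more UMIs.

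The 5 marker genes of the class were all present. Cxcr3 was seen in 90.7% of anti-IgG and 81.5% of anti-PD1 members and Tbx21 in 38.8% and 43.3%, as the choice of cells sets. Cd40lg, also part of the rule, was seen in 57.2% and 58.5%, against 40.2% and 36.5% of the other CD4 cells. Where both groups lacked Ccr7 and Lef1 UMIs, its ratios of members over others were 1.07 (0.867 to 1.34) and 0.989 (0.818 to 1.20). Ifng was seen in 31.8% (28.4 to 35.4) and 28.8% (24.7 to 33.2) of members, against 4.55% and 3.49% of the other CD4 cells and none of the B cells, where 0 of 59 and 0 of 138 allow up to 6.06% and 2.64%. Zfp683 was seen in 28.5% (25.2 to 32.0) and 17.8% (14.4 to 21.6) of members, against 1.56% and 3.29% of the other CD4 cells and none of the B cells. An Ifng, Zfp683 or Nkg7 UMI was seen in 79.0% of anti-IgG and 73.2% of anti-PD1 members and in 10.9% and 13.5% of the other CD4 cells. Cd4 itself was seen in 83.3% and 82.4% of members. The rest entered through Cd40lg.

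Within the Th1-like cells, Zfp683 and Ifng were more frequent where both rule genes were seen than where Cxcr3 alone was seen. Zfp683 was in 41.1% of anti-IgG members with Cxcr3 and Tbx21 together, 22.4% with Cxcr3 alone and 29.2% with Tbx21 alone, and under anti-PD1 in 30.1%, 14.7% and 10.7%. Ifng was in 40.6%, 27.3% and 33.8% of these anti-IgG members and in 46.9%, 20.9% and 28.6% of the anti-PD1 members. The anti-IgG intervals of cells with both genes and with Tbx21 alone overlapped, 33.8 to 47.6% and 22.6 to 46.6% for Ifng and 34.3 to 48.1% and 18.6 to 41.8% for Zfp683. Cells with both genes were also deeper, with medians of 4516 (anti-IgG) and 4391 UMIs (anti-PD1) against 4022 and 4056 for Cxcr3 alone and 3689 and 3606.5 for Tbx21 alone. Zfp683 also went with Cxcr6, a chemokine receptor of tissue-resident T cells. It was seen in 37.2% of anti-IgG members with a Cxcr6 UMI and 17.5% without one, and in 24.6% and 12.1% under anti-PD1. It was seen in 23.7% of anti-IgG members with a Pdcd1 UMI and 30.4% without one, and in 11.7% and 20.2% under anti-PD1. Median depths of members with and without a Cxcr6 UMI were 4407 and 3753 UMIs (anti-IgG) and 4325 and 3708 (anti-PD1), and cells with a UMI of any gene tend to be the deeper ones. Members overlapped other CD4 subsets, as 28.1% and 28.6% held Izumo1r, a surface receptor of regulatory and anergic T cells, and 23.0% and 33.4% held Tnfsf11 or Ccr4. The cycling genes Mki67 or Top2a were seen in 24.1% and 26.4%.

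Against the other CD4 cells, the Th1-like cells were higher in most Th1 effector, residency and cell cycle genes listed and lower in genes of naive cells. A gene was counted as higher or lower when its CPM differed by a ratio of at least 1.5 with a 95% interval that left out 1, in both libraries the same way, among genes with at least 50 summed UMIs. Of 8085 genes compared, 784 (9.7%) were higher and 235 (2.91%) were lower in the Th1-like cells. The median gene was itself shifted by 0.18 (anti-IgG) and 0.15 (anti-PD1) on the log2 scale. With ratios divided by that median, 500 genes were higher and 399 lower.

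Of 16 Th1 cytokine and effector genes compared, 12 were higher in the Th1-like cells and 1, Prf1, was lower, with median log2 ratios of 2.20 (anti-IgG) and 1.53 (anti-PD1) against 0.18 and 0.15 over all genes. Ifng stood at 137 CPM in anti-IgG and 156 in anti-PD1 members, and at 24.4 and 22.3 in the other CD4 cells. The ratios were 5.64 (4.43 to 7.25) and 6.99 (5.50 to 8.97). Members stood above the other CD4 cells in both libraries. Nkg7 stood at 696 and 776 CPM in members and 87.6 and 137 in other CD4 cells, ratios of 7.95 and 5.69. Ccl5, a chemokine of activated T cells, stood at 2003 and 1729.8 CPM in members, ratios of 5.86 and 4.0. Gzmk, a granzyme of memory T cells, had ratios of 10.2 and 6.76, Gzmb (granzyme B) 20.1 and 7.43, and Ly6c2, a surface protein of effector and memory T cells, 6.25 and 5.16. Tnf (2.51 and 2.39), Il2 (3.94 and 2.69) and Fasl (3.04 and 3.10) were higher as well. Prf1, which encodes perforin, was scarce, with 12 and 14 UMIs in members and ratios of 0.240 and 0.440.

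Of 18 Th1 regulators and receptors, 11 were higher and 2 lower, with median log2 ratios of 1.06 and 0.93. Zfp683 had the ratios 14.8 (9.52 to 24.2) and 5.14 (3.66 to 7.35), from 95.8 and 62.1 CPM in members and 6.48 and 12.1 in the other CD4 cells. Receptor genes for the cytokines that drive Th1 cells followed: Il12rb2 of the interleukin 12 receptor (5.37 and 3.85), Il18rap (6.13 and 3.63) and Il18r1 (2.11 and 1.88) of the interleukin 18 receptor, and Il2rb (5.77 and 3.36). Runx3, a partner of T-bet, had ratios of 2.05 and 1.94. The 2 lower genes were Txk (0.337 and 0.360), a kinase of T cell receptor signalling, and Ifngr2, the signalling chain of the interferon gamma receptor. Ifngr2 stood at 16.0 and 29.9 CPM in members and 78.0 and 146 in other CD4 cells, a ratio of 0.205 in both libraries.

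Residency genes were higher in 11 of 17 cases and lower in none, among them Cxcr6 (4.33 and 3.52), the collagen-binding integrin gene Itga1 (11.6 and 3.14) and P2rx7 (5.96 and 3.96), an ATP-gated channel of tissue-resident T cells. Naive and memory genes were lower in 15 of 18 cases and higher in none. Ccr7 had ratios of 0.129 and 0.119, and Lef1, a transcription factor of naive T cells, 0.224 and 0.278. Of 22 cell cycle genes, 20 were higher and none lower, with Top2a at 7.08 and 8.74. The 12 highest ratios by the naming rule were all of cell division or histone genes, such as Tpx2 (18.1 and 19.4) and Cenpf (14.4 and 13.8). The lowest was Igfbp4 (0.0711 and 0.0803), a gene of naive CD4 cells. Type I interferon genes were higher in 14 of 29 cases and interferon gamma response genes in 10 of 24, with none lower in either list. Of the 14 checkpoint genes 6 were higher, with Pdcd1 at 6.31 and 2.18, and 1 lower, Cd200 (0.428 and 0.524), and of the 14 costimulation genes 9 were higher.

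Most of the other CD4 cells were naive-like. Neither Ccr7 nor Lef1 was seen in 52.2% and 55.6% of the Th1-like cells but only in 14.0% and 18.1% of the other CD4 cells. When both sides were limited to cells without these 2 genes, a choice made after the values above were seen, 366 and 253 Th1-like cells were compared with 117 and 182 others. Of 4696 genes compared, 40 (0.852%) were then higher and 49 (1.04%) lower in the Th1-like cells, and fewer genes reached 50 UMIs.

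Zfp683 and several granule genes were among the 40 genes that stayed higher. Zfp683 had ratios of 4.26 (2.37 to 8.40) and 1.99 (1.22 to 3.34), P2rx7 2.47 and 2.07, Gzmk 2.32 and 3.67, Nkg7 2.52 and 1.90, Gzmb 4.44 and 1.68 and Ly6c2 2.36 and 1.70. Ctsw, which encodes a protease of cytotoxic lymphocytes, had ratios of 2.28 and 1.73, and Top2a 3.49 and 1.99. Of the Th1 effector genes 5 of 11 were higher (Nkg7, Gzmb, Gzmk, Ly6c2 and Fasl), and of the Th1 regulators 1 of 17 (Zfp683). Residency genes were higher in 2 of 14 cases (Zfp683 and P2rx7) and cell cycle genes in 4 of 13. Type I interferon genes were higher in 1 of 22 cases. None of 18 interferon gamma response, 10 checkpoint or 13 costimulation genes was higher. The 40 also held genes outside these lists, here picked after their values were seen, such as Ptger4 (1.68 and 1.95), a prostaglandin receptor gene, and Gimap4 (1.68 and 1.69), a lymphocyte GTPase gene. Ifng was not among them: its ratios were 1.44 and 2.41, and it was seen in 23.1% and 13.7% of the other non-naive CD4 cells. Cxcr6 (1.14 and 1.13), Il18r1 (0.826 and 0.783), Icos (0.745 and 0.809) and Ccr2 (0.522 and 0.724) no longer stood higher by the ratio used here.

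Among the 49 genes that were lower in the Th1-like cells of that comparison, stroma and MHC class II genes had several of the lowest ratios. The matrix gene Sparc had 31 and 0 UMIs in the Th1-like cells and 372 and 95 in the others. H2-Ab1 had ratios of 0.0685 and 0.298 and Cd74 0.121 and 0.343, and 5 of the 11 myeloid marker genes compared were lower. Whether myeloid or stroma RNA in the comparison cells had a part in those ratios was not tested. Of the Th17 genes 3 of 4 were lower, Tmem176a (0.312 and 0.185), Tmem176b (0.315 and 0.188) and Rora (0.660 and 0.643). Of the Th2 genes 1 of 4 was lower, the master regulator Gata3 (0.602 and 0.608), of the Treg genes 1 of 4 and of the Tfh genes 0 of 4. Il7r, the interleukin 7 receptor gene, was lower as well (0.639 and 0.560). Satb1, a chromatin organiser of naive T cells, was lower too (0.363 and 0.379).

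**Figure D2:**
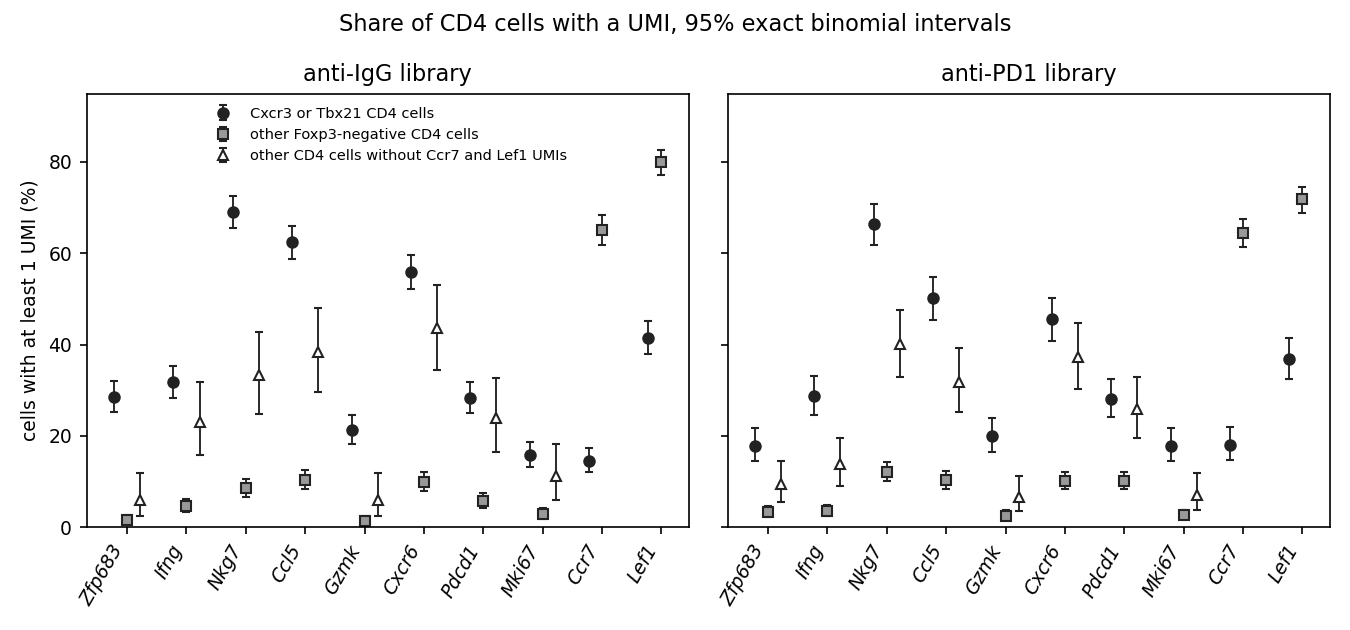
Percent of cells with at least 1 UMI (vertical axis) for 10 genes in the anti-IgG (left) and anti-PD1 (right) libraries: Th1-like cells (circles), other CD4 cells (squares) and other CD4 cells without Ccr7 and Lef1 UMIs (triangles, not drawn for Ccr7 and Lef1), with 95% exact binomial intervals. The circles stand above the triangles for Zfp683, Nkg7 and Gzmk in both panels, and the intervals overlap for Cxcr6 and Pdcd1. The circles hold all Th1-like cells, also those with Ccr7 or Lef1 UMIs, unlike the comparison in the text, which limits both sides.

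Between the libraries, the Th1-like cells of the anti-PD1 library were higher in 14 of 24 early activation genes and lower in 9 of 30 type I interferon genes, while the intervals of Ifng and Pdcd1 held 1. Of 8484 genes compared, 455 (5.36%) were higher and 616 (7.26%) lower under anti-PD1. In the other CD4 cells 529 of 8639 genes (6.12%) were higher and 673 (7.79%) lower. The median gene of the members was at -0.09 on the log2 scale, and with ratios divided by that median 571 genes were higher and 410 lower. Among genes compared in both cell groups, 249 were higher in both, 57.1% of those higher in the Th1-like cells and 56.0% of those higher in the other CD4 cells. Lower in both were 199, 35.5% and 34.5% of the respective lists.

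Th1 regulators split between directions. Of 18 compared, 3 were higher under anti-PD1, Bhlhe40 (4.12, 3.73 to 4.56), Il12rb2 (2.05, 1.56 to 2.69) and Ifngr2 (1.87, 1.29 to 2.73), and 3 were lower, Id2 (0.597), Il27ra (0.642) and Zfp683 (0.649), with a median log2 ratio of -0.05. Bhlhe40, a factor that Th1 cells need to make interferon gamma, rested on 155 CPM under anti-IgG and 640 under anti-PD1 and was seen in 31.7% and 68.1% of members. Id2, a factor of effector T cells, was at 536 and 320 CPM and seen in 78.0% and 59.6%. In the other CD4 cells 7 of 18 regulators were higher and none lower, with a median of 0.37.

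Zfp683 went one way in the Th1-like cells and the other way in the rest of the CD4 cells. It stood at 95.8 CPM in anti-IgG and 62.1 in anti-PD1 members, a ratio of 0.649 (0.527 to 0.794). In the other CD4 cells it stood at 6.48 and 12.1, a ratio of 1.87, so the ratio of the ratios was 0.348 (0.200 to 0.605). Cells that fell out of the rule for lack of a Cxcr3 or Tbx21 UMI cannot be told apart here from a change within either group. With every cell thinned to 1000 UMIs the members' ratio was 0.885, and the shares of members with a UMI were 7.58% (53 of 699) and 7.03% (32 of 455), not distinguishable at that depth. P2rx7 was lower beside Zfp683 (0.636, 0.528 to 0.765), whereas Itga1 (0.689) and Cxcr6 (0.689) stayed just under the ratio used here. Of 17 residency genes, 4 were higher (Bhlhe40, Crem, Rgs2 and Xcl1) and 2 lower (Zfp683 and P2rx7).

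The interval of the Th1 cytokine held 1. Ifng was at 137 CPM under anti-IgG and 156 under anti-PD1, a ratio of 1.14 (0.986 to 1.31), and was seen in 31.8% and 28.8% of members. Nkg7 (1.12), Gzmk (1.08), Tnf (0.989) and Fasl (1.29) were also within the ratio of 1.5. Of 15 Th1 effector genes 4 were higher: Ccl4 (4.86), Gzma (4.2), Xcl1 (1.75) and Gzmb (1.69). Il2 (0.618, 0.441 to 0.855) and Tnfsf10 (0.658, 0.472 to 0.905) were lower. Gzma, granzyme A, rested on few cells: 5 cells held 84.4% of its anti-PD1 UMIs, and among members without Ccr7 and Lef1 its ratio was 0.986. Gzmb was at 1.08 in those same cells. Ccl4, a chemokine for monocytes and T cells, was seen in 2.00% and 4.4% of members and ranged from 2.30 to 8.81 over the alternative settings. Il2 was at 0.236 after thinning, and Tnfsf10 was at 1.03 among cells without any UMI of other cell types. Xcl1 was at 5.10 among those.

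Pdcd1, which encodes the receptor the antibody binds, stood at 149.8 CPM in anti-IgG and 151 in anti-PD1 members, a ratio of 1.01 (0.876 to 1.16), and was seen in 28.2% and 28.1% of them and in none of the B cells. In the other CD4 cells it was at 23.7 and 69.3, a ratio of 2.92, and the ratio of the ratios was 0.345 (0.259 to 0.461). Of 13 checkpoint genes 7 were higher and 1 lower in the members, with a median log2 ratio of 0.83 against -0.09 over all genes. In the other CD4 cells 6 of 12 were higher and 1 lower, with a median of 0.835. Ctla4, an inhibitory receptor for CD80 and CD86, was at 134 and 266 CPM in the members (1.99, 1.76 to 2.26). It was at 0.966 among the 199 and 132 members without any myeloid, B cell or heart stroma UMI. Tigit, another inhibitory receptor, had a ratio of 1.78, and the genes of the PD1 ligands, Cd274 and Pdcd1lg2, 1.97 and 1.88. Entpd1, which encodes the ATP-cleaving enzyme CD39, was lower, at 45.3 and 20.4 CPM (0.451, 0.316 to 0.631).

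The Nr4a nuclear receptors, which T cell receptor signals induce, held 3 of the 4 highest ratios where members had 200 or more summed UMIs of a gene. Nr4a1 stood at 89.7 CPM in anti-IgG and 638 in anti-PD1 members, a ratio of 7.11 (6.28 to 8.07), and was seen in 18.0% and 69.7% of them. Nr4a2 had a ratio of 9.50 (6.98 to 13.2) and Nr4a3 of 5.68 (4.85 to 6.69). Among B cells, Nr4a1 was seen in 27.1% under anti-IgG and 54.3% under anti-PD1, and the cause of these differences was not tested. Of 24 early activation genes 14 were higher and 2 lower in the members, with a median log2 ratio of 0.83. In the other CD4 cells 10 of 24 were higher and 3 lower, with a median of 0.42. Higher in the members were Fosl2 (4.62), Crem (3.95), Dusp5 (3.68), Nfkbia (2.54), Tnfaip3 (2.14) and Junb (2.11), and lower were Jun (0.573) and Fosb (0.646). Junb stood at 1641 and 3465 CPM. Of 16 genes that follow receptor strength 9 were higher in the members and 8 in the other CD4 cells, and none was lower in either. Atf3, a stress-induced factor, had the highest ratio of all named genes, 26.1, from 11 and 184 UMIs, and 5 cells held 61.4% of the latter.

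Of 14 costimulation genes, 5 were higher, Tnfrsf1b (3.33), Tnfsf11 (2.53), Icos (2.49), Tnfrsf9 (2.43) and Tnfrsf4 (1.61), and 2 lower, Cd226 (0.551) and Tnfsf14 (0.632). In the other CD4 cells 6 of 14 were higher and 1 lower. Over all genes compared in the members, 5.36% were higher and 7.26% lower. Icos was seen in 54.2% and 71.0% of members and Cd226, an activating receptor that competes with TIGIT for its ligands, in 58.2% and 39.3%. Tnfsf14 was at 1.02 among members without any UMI of other cell types. Chemokine receptor and homing genes were higher in 3 of 18 cases, Cxcr4 (2.39), Ccr8 (1.67) and Ccr4 (1.56), and lower in none. In the other CD4 cells 4 of 19 were higher and 4 lower. Ccr8 was at 1.02 in the members after thinning. Of the Th17 list Rora (2.06) and Il17a (5.73) were higher, the latter seen in 0.285% and 1.32% of members. The cell cycle list had 1 of 25 genes higher, Cenpa, and none lower, with Mki67 at 226 and 219 CPM. Among members without Ccr7 and Lef1 UMIs, Mki67 was at 0.670 (0.552 to 0.811) and Cenpa at 1.16 (0.888 to 1.51).

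**Figure D3:**
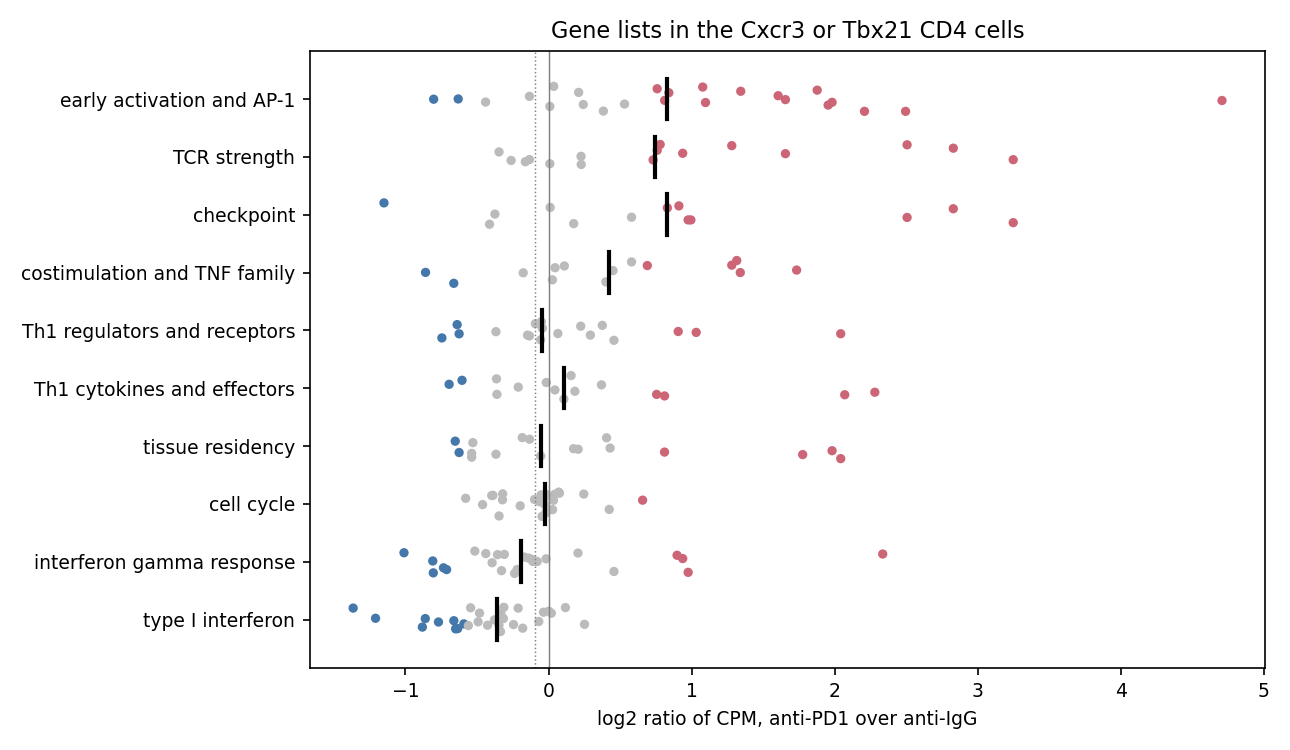
Log2 ratio of CPM, anti-PD1 over anti-IgG (horizontal axis), for the genes of 10 lists (rows) in the Th1-like cells; each point is a gene, coloured where it was higher (red) or lower (blue), black bars are list medians and the dotted line is the median of all genes. The activation, receptor strength and checkpoint medians lie between 0.75 and 0.83 and the type I interferon median at -0.36.

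Of 30 type I interferon genes 9 were lower under anti-PD1, none was higher and the others did not pass, where 7.26% of all genes were lower and 5.36% higher. The lower ones included Ifit1bl1 (0.388), Oas2 (0.433), Slfn5 (0.543), Mx1 (0.550) and Slfn1 (0.587), and the list's median log2 ratio was -0.36. Slfn1 was seen in 61.1% of anti-IgG and 45.1% of anti-PD1 members. In the other CD4 cells 15 of 29 were lower and none higher, with a median of -0.65. The 26 interferon gamma response genes went both ways, 5 lower and 4 higher. The lower ones were GTPases, Iigp1 (0.496), Gbp6 (0.571), Gbp8 (0.572), Irgm1 (0.601) and Tgtp2 (0.610), and the higher ones Cxcl10 (5.05), Cd274 (1.97), Irf8 (1.92) and Socs3 (1.86). Cxcl10 rested on 43 and 139 UMIs, 67 of the latter in 1 cell. Irf8 did not keep its direction when cells were thinned (0.960) or when cells with UMIs of other cell types were left out (0.430). Iigp1 was at 0.773 without the latter.

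Of the CXCR3 ligand genes, Cxcl9 was at 0 in the members and had 14 and 13 UMIs in all cells of the libraries. Cxcl10 was at 12.8 CPM over all anti-IgG and 35.6 over all anti-PD1 cells, a ratio of 2.79 (2.44 to 3.19), in 87 and 270 cells. Cxcl11 had 0 and 1 UMIs. The ligand gene that differed was thus higher in the library with the smaller share of Cxcr3 cells, and a relation between these values was not tested.

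Many of the widest ratios at higher depth lay outside the lists. Among the 4169 genes with at least 200 summed UMIs in the members, named after their values were seen, Ramp3, a partner chain of the adrenomedullin receptor, had a ratio of 6.70. Its ratio was 3.69 with at least 2 UMIs of Cxcr3 and Tbx21 asked of a cell. Hilpda, a hypoxia-induced lipid droplet gene, was at 5.53, Vps37b at 4.82, Tgif1, a repressor of TGF-beta signals, at 4.44 and Odc1, the first enzyme of polyamine synthesis, at 4.30. Lower were Ddit4 (0.416), an inhibitor of mTOR, and Txnip (0.430), an inhibitor of glucose uptake seen in 88.2% and 66.8% of members. Bcl2, a survival gene, was at 0.565.

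**Figure D4:**
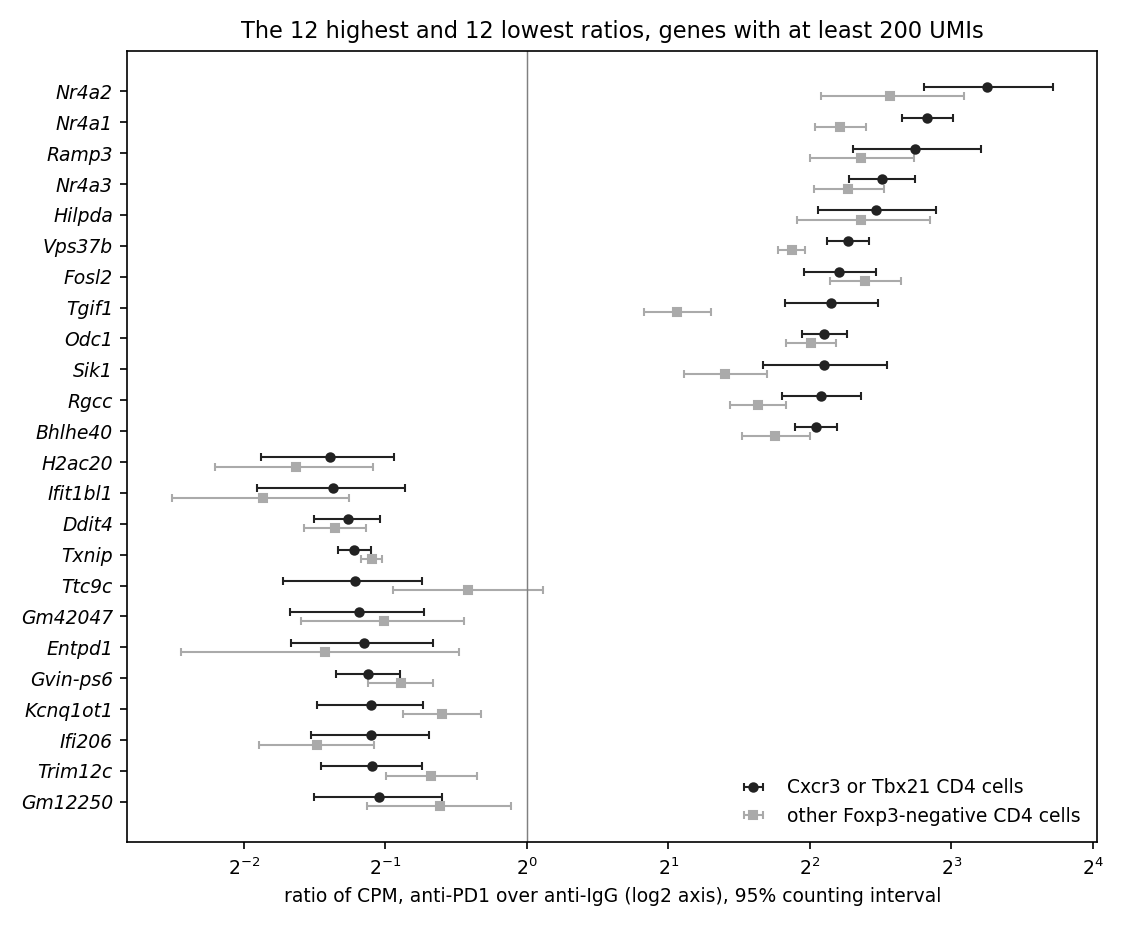
Ratio of CPM, anti-PD1 over anti-IgG, on a log2 axis, for the 12 highest and 12 lowest genes with at least 200 summed UMIs in the Th1-like cells (black circles) and the same genes in the other CD4 cells (grey squares), with 95% counting intervals. All 24 genes lie on the same side of 1 in both cell groups, and Nr4a1 (7.11) and Tgif1 (4.44) stand further out in the Th1-like cells.

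The library ratio itself differed between the cell groups for few genes. The ratio in the Th1-like cells over that in the other CD4 cells was at least 1.5 with an interval above 1 for 223 of 8098 genes (2.75%) and the reverse for 253 (3.12%). Besides Pdcd1 (0.345) and Zfp683 (0.348), Gzmb (0.370, 0.190 to 0.721), Xcl1 (0.389, 0.261 to 0.579) and Itga1 (0.270, 0.128 to 0.569) had ratios further down in the Th1-like cells, with 11 anti-IgG UMIs of Gzmb and of Itga1 in the other CD4 cells. Tgif1 (2.12, 1.61 to 2.79), Nr4a1 (1.53, 1.29 to 1.82) and Nfkbia (1.63, 1.49 to 1.77) had ratios further up. These genes, apart from Zfp683, were picked after their values were seen. Both cell groups were set by Cxcr3 and Tbx21 UMIs, and Cxcr3 itself was lower under anti-PD1. A shift of cells across the rule therefore cannot be told apart from a change within a group.

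Transcripts of other cell types were present in the members and differed between libraries. Summed over 18 myeloid marker genes they came to 3262 CPM in anti-IgG and 4025 in anti-PD1 members, with 26 and 35 cells holding 20 or more such UMIs and 2 and 0 of the genes at 0. Gene by gene, 6 of the 14 compared were lower under anti-PD1 (C1qa, C1qc, Csf1r, Cd68, Fcgr3 and Apoe) and 4 higher (Cd74, H2-Aa, H2-Ab1 and H2-Eb1), with a median log2 ratio of -0.50. Some of these directions were not stable. Among members without Ccr7 and Lef1 UMIs, C1qa (2.74), C1qc (2.45) and Apoe (8.73) were higher under anti-PD1 and H2-Eb1 was at 0.972. Cd74 (1.70), H2-Ab1 (1.83) and H2-Aa (1.19) stayed above 1 there. The 10 B cell genes came to 67.1 and 268 CPM, with 5 and 13 such cells and none at 0, and the 16 heart stroma genes to 199 and 95.2 CPM, with 3 and 1 such cells and 1 and 5 at 0. Innate-like and NK genes came to 404 and 453 CPM in members and 260 and 202 in the other CD4 cells, and none of the 15 was at 0 in members. The MHC class II genes that were higher under anti-PD1, such as H2-Ab1 (2.13), are part of the myeloid sum. The B cell genes, such as Cd79a (5.64), are part of the B cell sum, so a rise beside these sums adds nothing to them. Without any cell holding a myeloid, B cell or heart stroma UMI, Bcl2 was at 0.760, P2rx7 at 0.769, Slfn5 at 0.802, Tigit at 1.34 and Mki67 at 0.631. Entpd1 (0.636, 0.284 to 1.33) and Ccl4 (3.01, 0.431 to 33.2) then had intervals that held 1.

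No pair of T cell receptor V segments dominated the Th1-like cells. Among the 512 anti-IgG members with both an alpha and a beta segment, the most frequent pair, Trav9-1 with Trbv26, was in 10 cells (1.95%, 0.940 to 3.56). Among 311 anti-PD1 members it was Trav4-4-dv10 with Trbv20, in 6 cells (1.93%, 0.711 to 4.15). The beta segment Trbv13-2 was in 17.7% of anti-IgG members and 11.2% of the other CD4 cells, and in 14.3% and 12.7% under anti-PD1. V segments describe pairs of gene segments and not clones, since the junctions were not read here.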

How the data were processed

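The deposited matrices hold raw UMI counts per gene and barcode, which the authors made with Cell Ranger 7.1.0 per the file headers. Per the submitters' processing notes the tools were Cell Ranger 7.2.0 and Seurat 4.4.0, with build mm10. No source used here gives the gene annotation, and the labels' protocols describe no sort. Members, lists and tests were chosen with earlier results of these data known.

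Counts were summed per library and cell group and divided by the group's total (CPM). Genes needed 50 summed UMIs. A difference was called at a ratio of 1.5 either way with an exact conditional Poisson 95% interval leaving out 1. Shares have Clopper-Pearson intervals. A count of 0 uses that interval's upper bound. PCR and cells sharing a library are not covered by these intervals. With 1 library per group no test across samples was possible. Group totals were 3445041 and 2205397 UMIs in the anti-IgG and anti-PD1 members and 3243046 and 3808393 in the other CD4 cells. Named genes were the 12 highest and 12 lowest ratios among called genes seen in at least 20 members, the same numbers against the other CD4 cells by the ratio nearer 1, 6 each way by ratio of ratios, and the list members. Doublets were kept, since scrublet's automatic threshold marked 0 and 4 cells. An alternative left out the 149 and 272 highest scores. Promoter windows came from a RefSeq table. Python 3.11.15, numpy 2.4.6, scipy 1.17.1, pandas 2.3.3, scanpy 1.11.5 and matplotlib 3.10.9 were used. The calls were run on simulated Poisson counts, the model that the intervals assume. That simulation leaves out UMIs gathered in few cells, so it cannot show how the calls behave there. The labels give a 3′ kit. V-segment UMIs were seen in most members, and which transcript end was read is not settled here.

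Alternatives changed depth (thinning, weighting), filters, the rule, the fold, the scaling, and the cells left out. Leaving out the shared barcodes, and leaving cells with Ccr7 or Lef1 out of both groups, were added after seeing the data. A few genes, and a setting that left out cells by one of them, are not reported here.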

Additional observations from a re-analysis of the deposited data

Results flagged for a closer look

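For 12 genes named by the rules, the anti-PD1 over anti-IgG ratio lay on one side of 1 in the Th1-like cells and on the other side in the other CD4 cells. With 1 library per group the difference was not tested.

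Zfp683, the Hobit gene, had a ratio of 0.649 in the Th1-like cells and 1.87 in the other CD4 cells. It was the only one of the 12 that belongs to the lymphocyte lists and was seen in 200 and 81 members. Both groups depend on Cxcr3 and Tbx21 detection, so a shift of cells between them cannot be told apart from a change within them.

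Genes of endothelial cells, fat handling and matrix were lower in the members and higher in the other CD4 cells under anti-PD1: Ptprb (0.0306 against 12.1), Cavin2 (0.161 against 28.1), Cd36 (0.149 against 7.52), Fabp4 (0.239 against 14.0), Col4a1 (0.265 against 8.04) and Sparcl1 (0.359 against 6.86). Each was seen in at most 8 members of a library.

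Myeloid and matrix genes went the other way: Ccl6 (4.25 against 0.204), Ifitm1 (3.82 against 0.237), Wfdc17 (3.07 against 0.455), Fn1 (2.98 against 0.511) and Plbd1 (1.95 against 0.213). Each was seen in at most 14 members of a library. The part of heart stroma and myeloid transcripts in these cells was not tested.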

How the results depend on the processing

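No paired analysis was possible because each group is 1 library, and for the same reason no library could be left out. The share of Th1-like cells was lower under anti-PD1 in all 8 alternatives run. Its ratio was 0.495 with 2 UMIs asked of a cell, 0.616 without cells holding UMIs of other cell types and 0.768 among cells without Ccr7 and Lef1. Between libraries, 204 genes were higher and 221 lower after thinning, 211 and 246 without cells with UMIs of other types, 208 and 166 with 200 summed UMIs, and 186 and 166 at a ratio of 2. The lower genes were 410 after scaling to the median gene and 407 without Ccr7 and Lef1. Against the other CD4 cells, 328 were higher and 129 lower after thinning, 362 and 147 without cells with UMIs of other types, 500 and 399 after scaling, 362 and 135 with 200 summed UMIs, 308 and 108 at a ratio of 2, and 40 and 49 without Ccr7 and Lef1 in both groups.

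Median log2 ratios over the other CD4 cells (anti-IgG and anti-PD1) stayed positive in both Th1 lists. For Th1 regulators they were 0.79 and 0.47 after thinning, 0.74 and 0.54 with 200 summed UMIs, and 0.28 and 0.0911 without Ccr7 and Lef1. For Th1 effectors they were 2.73 and 2.34 after thinning and 0.88 and 0.77 without Ccr7 and Lef1. The anti-PD1 effector median was 2.49 without cells with UMIs of other types and 2.18 with 200 summed UMIs. The anti-IgG one was 1.5 with the other CD4 cells weighted to the members' depth.

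Some directions reversed. Between libraries Irf8 was at 0.960 after thinning. Without cells with UMIs of other types, Ccl6 was at 0, Ctla4 at 0.966, Irf8 at 0.430, Tnfsf10 at 1.03 and Tnfsf14 at 1.02. Without Ccr7 and Lef1, Gzma was at 0.986 and Ifitm1 at 0.125. In that setting the myeloid list genes C1qa (2.74), C1qc (2.45), Apoe (8.73) and H2-Eb1 (0.972) reversed too. They are not among the ratios counted below. Against the other CD4 cells, without Ccr7 and Lef1 in both groups, the medians of the checkpoint list (anti-PD1) and the costimulation list (anti-IgG) were -0.13 and -0.0984. In that setting the anti-IgG ratios were Bhlhe40 0.788, Ccr2 0.522, Gata3 0.602, Icos 0.745, Il18r1 0.826, Maf 0.982, Rora 0.660 and Tigit 0.890. The anti-PD1 ratios were Bub1b 0.945, Ccr2 0.724, Icos 0.809, Il18r1 0.783, Il18rap 0.986, Itga1 0.692, Maf 0.826 and Rora 0.643. The cause of the reversals was not tested. A gene ratio was counted as having stayed when its value under an alternative lay within the interval of the reported ratio. Whether a gene kept its call as higher or lower was not counted, and genes without a call, such as Cd40lg, were included. Between libraries under alternatives, 804 gene ratios stayed, 133 moved and 8 reversed. Against the other CD4 cells 831 stayed, 323 moved and 16 reversed.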
